A study of Mus musculus with 21 samples.

Results

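Ultraviolet B (UVB) light was given to *Ifnk* TG and WT mice, and the contrast described here asks in which genes of the skin-draining lymph nodes (SDLNs) the response to UVB differed between the genotypes. It takes the change from untreated (NoTx) to irradiated (UVTx) in *Ifnk* TG mice and subtracts the same change in WT mice. The contrast was chosen by the design alone: all 12 inguinal node libraries of the 21 in the series entered it, in 4 groups of 3. The WT NoTx libraries are numbered 1, 2 and 3, the *Ifnk* TG NoTx libraries 4, 5 and 6, the WT UVTx libraries 7, 8 and 9 and the *Ifnk* TG UVTx libraries 10, 11 and 12. *Ifnk* TG mice carry mouse *Ifnk*, which encodes interferon kappa, behind the keratin 14 promoter, which is active in the epidermis; they were made with a PiggyBac vector on C57Bl/6 and backcrossed to BALB/c, and WT mice were BALB/c. UVTx mice received 250 mJ/cm2 of UVB in each session, with 3 sessions per week for 2 weeks, and were then observed for 2 weeks. All 12 node libraries were recorded here as from mice of 3 months, 1 of the 2 ages of the study (3 and 12 months). Their labels do not state this age. The sex of these mice, and which mouse a library came from, are not given in the sources used here. The labels put all 12 libraries in 1 batch. Nothing in the sources says whether a library pooled animals, so each p-value measures only the spread between these libraries.

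Type I interferons, interferon kappa among them, act through the receptor chains IFNAR1 and IFNAR2. Their signal reaches a short promoter element, the interferon-stimulated response element (ISRE), which switches on interferon-stimulated genes (ISGs). These sense viral RNA, block viral growth and feed back on the signal. A skin-draining node receives antigen, dendritic cells and soluble mediators from the skin through lymph, so it is a place where an effect of UVB on skin can reach lymphocytes.

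In the interaction, no single gene passed the test, and the type I ISGs lay far to the positive side. All 44 tested ISGs had a positive interaction, with a median log2 fold change of 1.98. In WT nodes the median UVB response of these genes was -0.89, and in *Ifnk* TG nodes it was 0.91. The opposite side of the contrast held heat shock genes (18 of 21 negative, median -0.75), mitosis genes (44 of 46 negative, median -0.39) and germinal centre B cell genes (14 of 15 negative, median -0.64), all of which had a higher median UVB response in WT than in *Ifnk* TG nodes. A positive value means a higher UVB response in *Ifnk* TG than in WT. Across all tested genes the median interaction was 0.01 and 51.1% were positive.

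Each library held 27599809 to 36428435 estimated counts assigned to genes, and a count of 0 allowed a share of up to 8.24e-06% to 1.09e-05% of a library (3 counts, counting error only). Of the genes in the table, 16173 passed the filter on low counts and were tested by edgeR's quasi-likelihood F-test with Benjamini-Hochberg adjustment; a gene with an adjusted p under 0.05 is called a differentially expressed gene (DEG). Markers of the labelled tissue were present: all 19 listed T cell genes and all 20 listed B cell genes were tested, with summed levels of 5147 to 6424 CPM, counts scaled to a common library size, for the T cell list and 3706 to 6971 CPM for the B cell list. The transgene gave no check of the genotype labels, since *Ifnk* had 0 counts in all 12 node libraries.

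Libraries of 1 group did not always lie together. On the first principal component (27.9% of the variance) the UVTx libraries were apart from the NoTx libraries except for *Ifnk* TG UVTx 12, which lay among the NoTx libraries at -19.5. *Ifnk* TG UVTx 11 lay apart on the second component (15.4% of the variance) at -54.5. It held the transcripts of kidney epithelium: a list of 23 kidney tubule and glomerulus genes, written after that component was seen, summed to 2047 CPM in it and to 8.94 to 23.3 CPM in the other 11 libraries. *Umod*, which encodes the kidney tubule protein uromodulin, was at 87.6 CPM in *Ifnk* TG UVTx 11 and at 0 in the other 11. WT UVTx 8 had the highest heat shock sum, 13506 CPM against 4050 to 8325 CPM in the other 11 libraries, and *Ifnk* TG NoTx 5 had the lowest B cell sum. The neutrophil list, at 3.78 to 6.25 CPM in the WT UVTx libraries and 5.00 and 5.57 CPM in *Ifnk* TG UVTx 10 and 11, was at 19.2 CPM in *Ifnk* TG UVTx 12. The mean log2 CPM of its 7 tested genes relative to all 12 libraries averaged 1.06 in *Ifnk* TG NoTx and 0.05 in WT NoTx. It averaged 0.0027 in *Ifnk* TG UVTx and -1.10 in WT UVTx. The part of these differences in the interaction was not tested beyond leaving libraries out. Where leaving out 1 library moved a list's median by over 1.5 times, the values furthest from it stand beside it.

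**Figure D1:**
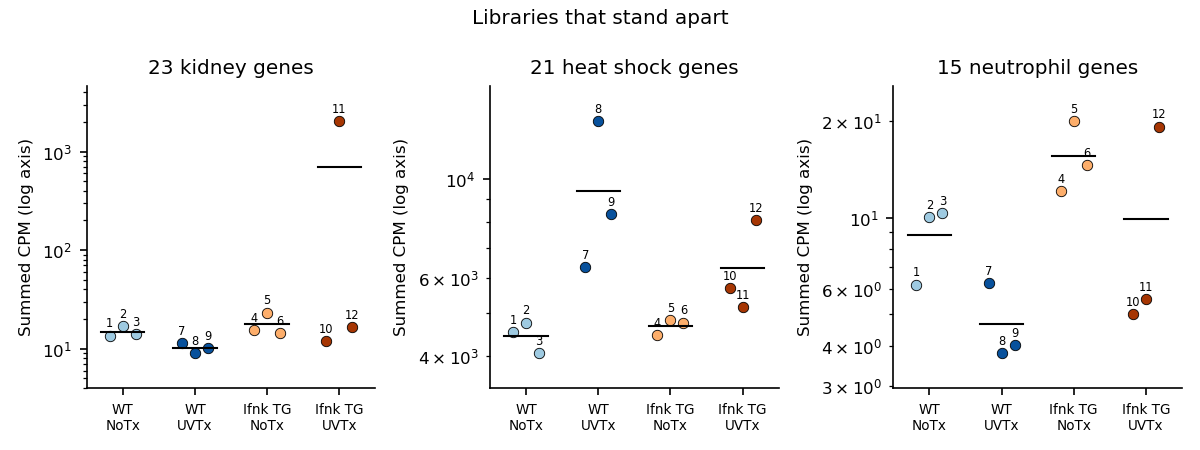
Summed CPM per library (log axis) of 23 kidney genes, 21 heat shock genes and 15 neutrophil genes; each point is a library with its number, and each line is the mean of 3 libraries. *Ifnk* TG UVTx 11 stands at 2047 CPM for the kidney genes and WT UVTx 8 at 13506 CPM for the heat shock genes. *Ifnk* TG UVTx 12, at 19.2 CPM, is the highest of the UVTx libraries for the neutrophil genes.

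The interaction contrast gave 0 DEGs (0% of the 16173 genes) by edgeR, with a lowest adjusted p of 0.616. At an unadjusted p under 0.05 it held 881 genes, 487 of them positive (3.01% of the tested genes) and 394 negative (2.44%). limma-voom also called 0 genes, with 863 at an unadjusted p under 0.05, and DESeq2 called 5, with 1009 at an unadjusted p under 0.05. The 5 were *Ifih1* and *Lgals3bp*, which were positive, and *Safb*, *Gm12940* and *Gm43802*, which were negative. The median standard error of an interaction was 0.25 on the log2 scale, against 0.18 for a UVB response within a genotype, and 10% of genes lay below -0.52 and 10% above 0.46.

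Both parts of the contrast were also tested alone, and they differed in their number of calls. In WT nodes UVB gave 805 DEGs (4.98% of genes), 472 higher (2.92%) and 333 lower (2.06%). In *Ifnk* TG nodes it gave 0 DEGs (0% of genes) by edgeR, with 1507 genes at an unadjusted p under 0.05. That count did not test a difference between genotypes, which is what the interaction tests. The WT count rested on few libraries: it was 0 without WT UVTx 8, 7 without WT NoTx 3 and 29 without WT UVTx 9. It was 190, 277, 281, 346 and 493 without libraries 2, 1, 6, 4 and 7, and 1583 and 2644 without libraries 10 and 12 of the *Ifnk* TG UVTx group, which enter through the shared estimate of spread. Without *Ifnk* TG UVTx 12 the *Ifnk* TG response gave 236 DEGs; leaving out any other library left it at 0.

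The WT DEGs mostly had the same sign in *Ifnk* TG nodes, at a smaller size. Of the 472 that rose in WT, 458 (97.0%) had a positive UVB response in *Ifnk* TG, with medians of 0.66 in WT and 0.27 in *Ifnk* TG. Of the 333 that fell in WT, 314 (94.3%) had a negative response in *Ifnk* TG, with medians of -0.53 and -0.19. These genes were chosen for a WT response past a threshold, which by itself favours larger values in WT, so the medians are a description. Across all genes the responses of the genotypes, which share no library, had a Pearson r of 0.411; the genes of a library share its depth and composition.

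**Figure D2:**
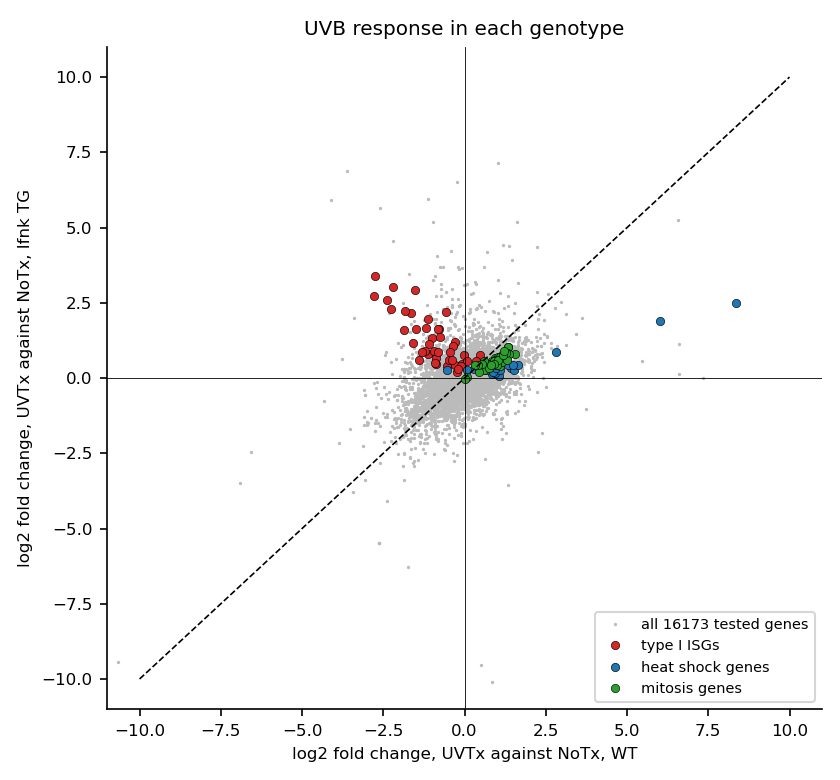
UVB response (log2 fold change, UVTx against NoTx) in WT nodes on the horizontal axis and in *Ifnk* TG nodes on the vertical axis, 1 point per tested gene; the dashed line marks equal responses and the distance above it is the interaction. The ISGs (red, median interaction 1.98) all lie above the line, and most heat shock genes (blue, median -0.75) and mitosis genes (green, median -0.39) lie below it.

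The ISRE is the element through which type I ISGs are known to respond, so the promoters of 3 of its effector genes are shown. The core searched was GAAA, any 2 bases and GAAA again, on either strand, in the 250 bases before and the 50 bases after each gene's start in the RefSeq annotation of GRCm38.p6. It was in 17 of the 33 tested ISGs that had a promoter in the table (51.5%), in 12 of 22 genes induced by interferon gamma (54.5%), in 1079 of all 27025 promoters (3.99%), in 3 of 39 mitosis genes (7.69%) and in 0 of 18 heat shock genes. The stretches around the cores are printed 5′ to 3′ on the strand of the gene, all upstream of its start, and capitals mark the core on either strand. Those of *Isg15* (chr4:156200840-156200931, minus strand), *Ifit1* (chr19:34640750-34640848, plus strand) and *Ifit3* (chr19:34583338-34583451, plus strand) hold 3, 2 and 2 cores.
Isg15: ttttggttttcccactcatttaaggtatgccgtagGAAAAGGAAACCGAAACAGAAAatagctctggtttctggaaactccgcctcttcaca
Ifit1: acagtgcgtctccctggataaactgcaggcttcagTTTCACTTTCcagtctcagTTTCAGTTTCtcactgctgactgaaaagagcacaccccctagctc
Ifit3: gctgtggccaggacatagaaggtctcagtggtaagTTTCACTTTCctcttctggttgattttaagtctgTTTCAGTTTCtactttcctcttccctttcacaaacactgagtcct
In *Isg15* the 3 cores overlap in 1 run on the gene's strand, and in *Ifit1* and *Ifit3* both cores lie on the opposite strand, where they read as TTTC, 2 bases and TTTC. A match describes the letters of a promoter and is neither a bound site nor a cause of a change.

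*Ifit1*, whose product binds viral RNA that lacks a host cap, lay near the upper end of the list. It was at 17.7, 112 and 91.8 CPM in WT NoTx 1, 2 and 3 and at 4.51, 6.91 and 30.3 CPM in WT UVTx 7, 8 and 9. In *Ifnk* TG nodes it was at 7.97, 4.48 and 6.48 CPM in NoTx 4, 5 and 6 and at 12.6, 79.0 and 22.7 CPM in UVTx 10, 11 and 12. Every *Ifnk* TG UVTx library was thus above every *Ifnk* TG NoTx library, every *Ifnk* TG NoTx library was below every WT NoTx library, and within WT the UVTx and NoTx ranges overlapped through WT NoTx 1 and WT UVTx 9. The interaction was 4.99 (SE 1.41), made of a UVB response of -2.40 in WT and 2.59 in *Ifnk* TG, and its adjusted p of 0.848 did not pass. The other ISGs given below with a standard error had the same adjusted p of 0.848.

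*Isg15* encodes a ubiquitin-like protein that is attached to other proteins and secreted. Its levels were 12.0, 53.1 and 41.9 CPM in WT NoTx, 5.47, 5.71 and 18.3 CPM in WT UVTx, 11.0, 7.01 and 6.71 CPM in *Ifnk* TG NoTx and 8.58, 46.5 and 19.4 CPM in *Ifnk* TG UVTx. Libraries 2, 3 and 11 were far above the rest, and in *Ifnk* TG the UVTx range overlapped the NoTx range through library 10. The interaction was 3.44 (SE 1.08). *Ifit3*, a partner of IFIT1 that has the close copy *Ifit3b*, had an interaction of 5.24 (SE 1.58), and *Ifit3b* had the highest of the list at 6.16, although counts of the copies may have been split between them. *Rsad2*, which encodes the antiviral enzyme viperin, ranged from 0.270 to 15.5 CPM with an interaction of 5.504 (SE 1.95). *Oasl2*, of the oligoadenylate synthetase-like family, had an interaction of 4.57 (SE 1.17). *Mx1*, a dynamin-like antiviral GTPase, overlapped between every pair of groups, with an interaction of 2.33 (SE 1.47), which was 0.79 without *Ifnk* TG UVTx 11 and 3.53 without WT UVTx 9. Without library 11 *Rsad2* was at 3.38.

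The cytosolic sensors of viral RNA differed by smaller folds. *Ddx58*, which encodes RIG-I, was at 171, 244 and 233 CPM in WT NoTx, 130.2, 148 and 172 CPM in WT UVTx, 145, 126 and 139 CPM in *Ifnk* TG NoTx and 158, 219 and 168 CPM in *Ifnk* TG UVTx. Its *Ifnk* TG groups did not overlap and its WT groups did, and its interaction of 0.94 (SE 0.21) had the lowest unadjusted p of all positive genes. *Ifih1*, which encodes MDA5, was at 30.7, 69.4 and 60.0 CPM in WT NoTx, 23.04, 26.0 and 34.2 CPM in WT UVTx, 21.3, 23.5 and 22.3 CPM in *Ifnk* TG NoTx and 27.5, 59.8 and 38.2 CPM in *Ifnk* TG UVTx. The *Ifnk* TG NoTx values lay close together and below every WT NoTx value, and the interaction was 1.85 (SE 0.46). The endosomal RNA receptors *Tlr3* and *Tlr7*, in the list of interferon ligands, receptors and signalling, had interactions of 1.72 (SE 0.52) and 1.19 (SE 0.39).

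Among the regulators of the response, *Irf7*, the factor that amplifies type I interferon production, was at 78.7, 208 and 112 CPM in WT NoTx and 50.4, 64.9 and 119.9 CPM in WT UVTx. In *Ifnk* TG nodes it was at 49.9, 39.9 and 38.7 CPM in NoTx and 69.6, 185 and 77.2 CPM in UVTx. The *Ifnk* TG groups did not overlap, the WT groups did, and the interaction was 2.13 (SE 0.70). *Usp18*, which removes ISG15 from proteins and restrains the receptor, had an interaction of 2.76 (SE 0.87). *Jak1*, the kinase of the receptor and the most abundant gene of the ligand, receptor and signalling list, was at 0.11 (SE 0.15).

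**Figure D3:**
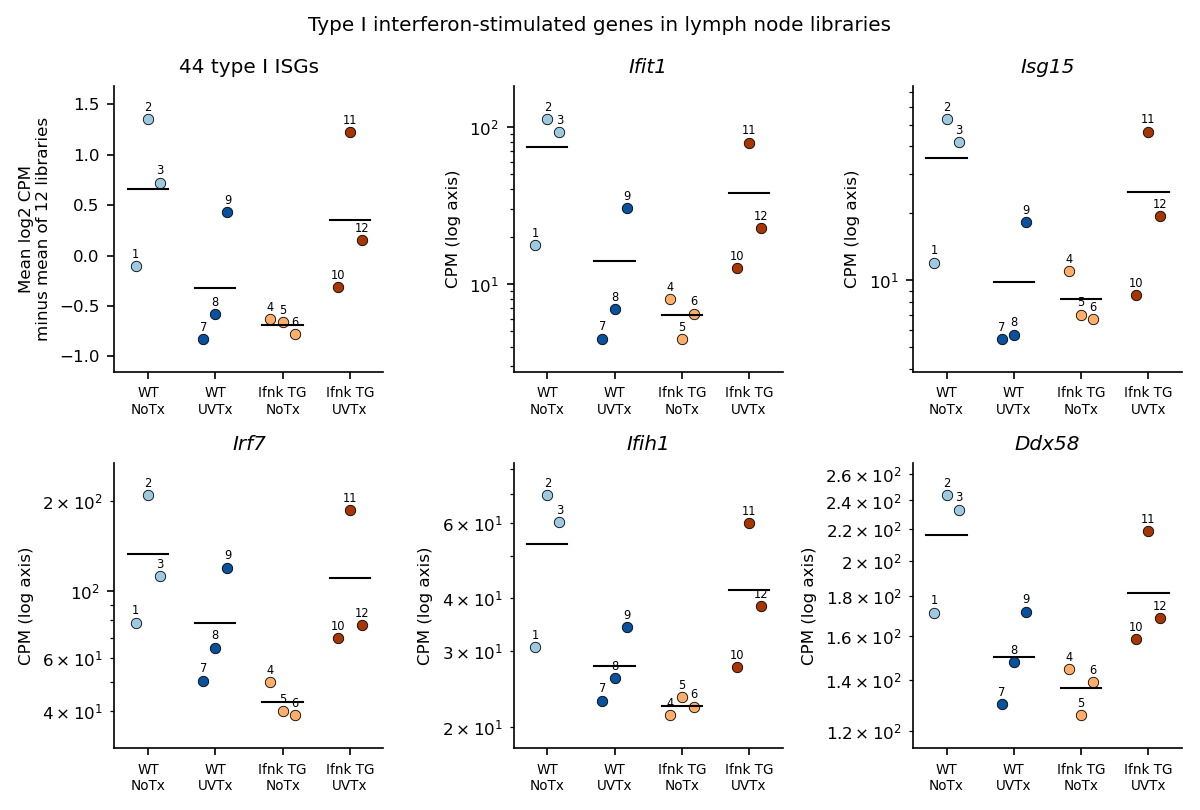
Mean log2 CPM of 44 type I ISGs relative to the mean of 12 libraries (first panel) and CPM of 5 ISGs (log axes), by group; each point is a library with its number and each line is the mean of 3 libraries. The *Ifnk* TG NoTx libraries sit together at -0.78 to -0.63 in the first panel, and WT NoTx 2 and *Ifnk* TG UVTx 11 are the highest at 1.35 and 1.22.

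Of the 44 tested ISGs, 37 had a positive interaction at an unadjusted p under 0.05, against 3.01% of all tested genes, and 0 were negative; 1 of the 45 listed genes did not pass the filter on low counts. Interactions ranged from 0.19 (*Uba7*) to 6.16 (*Ifit3b*). *Sp100*, a nuclear body protein and the most abundant member, was at 0.43 (SE 0.17), and *Bst2*, which tethers budding virus and is called tetherin, at 0.74 (SE 0.26). *Lgals3bp*, a secreted galectin-binding glycoprotein, was at 1.35 (SE 0.32). It was the only 1 of the 44 ISGs to be a DEG in WT nodes, where it fell by 0.89 on the log2 scale (adjusted p 0.0492, edgeR). Of all tested genes, 2.06% fell as DEGs in WT. The members are not replicates of each other.

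Both untreated and irradiated nodes entered the ISG contrast. Between genotypes the median was -1.28 in NoTx nodes (*Ifnk* TG against WT) and 0.59 in UVTx nodes, and for each gene the interaction is the second value minus the first. In NoTx nodes, 36 of the 44 had every *Ifnk* TG library below every WT library, against 4.93% of all tested genes. In UVTx nodes, 0 of the 44 had every *Ifnk* TG library above every WT library, against 5.39% of all genes. Within *Ifnk* TG, 20 of the 44 had every UVTx library above every NoTx library, against 6.23%, and within WT 4 of the 44 had every UVTx library below every NoTx library, against 17.3%. No ISG of the list separated in opposite directions in both genotypes. These comparisons share groups and are not independent of each other.

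Scores of the list, the mean log2 CPM of its 44 genes relative to all 12 libraries, were -0.10, 1.35 and 0.72 in WT NoTx and -0.83, -0.58 and 0.43 in WT UVTx. They were -0.63, -0.66 and -0.78 in *Ifnk* TG NoTx and -0.31, 1.22 and 0.15 in *Ifnk* TG UVTx. The *Ifnk* TG NoTx libraries had an SD of 0.08 and the other groups SDs of 0.67 to 0.79, and the ranges of these other groups overlapped. The median interaction was 1.44 without *Ifnk* TG UVTx 11, the library with kidney transcripts, with 30 genes at an unadjusted p under 0.05. It was 2.45 without WT UVTx 9, the highest that leaving out 1 library gave. Without both *Ifnk* TG UVTx 11 and 12, an alternative added after the data were seen, it was 1.18, with 9 of 45 genes at an unadjusted p under 0.05.

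Several genes outside the ISG list had low unadjusted p-values on the positive side. *Nkg7*, a protein of cytotoxic granules, was at 76.0, 71.4 and 66.7 CPM in WT NoTx, 56.4, 54.1 and 70.6 CPM in WT UVTx, 66.8, 61.0 and 64.1 CPM in *Ifnk* TG NoTx and 75.8, 92.6 and 79.1 CPM in *Ifnk* TG UVTx. All *Ifnk* TG UVTx values exceeded those of *Ifnk* TG NoTx and of WT UVTx, and the interaction was 0.61 (SE 0.15). *Slc16a11*, of the monocarboxylate transporter family, rested on 2 to 17 counts per library, with an interaction of 3.19 (SE 0.77). *Kcnab1*, a potassium channel beta subunit, rested on 5 to 20 counts, at 2.51 (SE 0.64). *Spata6* was at 0.46 (SE 0.11): it fell in WT by 0.51 on the log2 scale (adjusted p 0.015, edgeR) and had a UVB response of -0.06 in *Ifnk* TG.

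The same end of the ranking held further genes known to respond to interferon that were not in the list. *Tnfsf10*, the death ligand TRAIL, was at 0.56 (SE 0.14), and *Mov10*, an RNA helicase, at 0.90 (SE 0.23). *Ifi202b*, a DNA-binding protein of the interferon-inducible p200 family, was at 2.98 (SE 0.76), and *Phf11a* at 2.41 (SE 0.61). *Ifit1bl2* was at 2.45 (SE 0.59); it has a close copy, *Ifit1bl1*, as *Phf11a* has copies of its own, so their counts are uncertain. In these 5 genes every *Ifnk* TG NoTx library was below every WT NoTx library, against 4.93% of all tested genes. They were picked by an interaction that includes this difference, so the separation is a description and not separate support. Of the 487 positive genes at an unadjusted p under 0.05, 411 were in none of the lists.

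Genes induced by interferon gamma, the type II interferon of T and NK cells, stood between the ISGs and all genes. Of 33 tested, 25 were positive, 5 of them at an unadjusted p under 0.05 (3.01% of all genes), and the median was 0.31; it was 0.13 without WT NoTx 2 and 0.41 without WT NoTx 3. Their median UVB response was 0.36 in WT, where 5 genes rose (2.92% of all genes), and 0.61 in *Ifnk* TG. *Cxcl10*, a chemokine that draws activated T cells, rested on 8 to 68 counts per library and was at 2.37 (SE 0.79). *Ifng* itself went the other way: it was at 0.845, 0.533 and 0.338 CPM in WT NoTx, 1.32, 2.00 and 1.59 CPM in WT UVTx, 0.730, 0.709 and 0.605 CPM in *Ifnk* TG NoTx and 0.901, 0.835 and 0.826 CPM in *Ifnk* TG UVTx. It rose in WT by 1.51 on the log2 scale (adjusted p 0.0343, edgeR), its response in *Ifnk* TG was 0.32, and its interaction was -1.18 (SE 0.49). Every *Ifnk* TG UVTx value was below every WT UVTx value.

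Of the 26 listed interferon ligands, receptors and signalling genes, 19 were tested, 7 positive and 12 negative, with a median of -0.09 (-0.04 without *Ifnk* TG NoTx 4). Neither *Ifnk* nor *Ifnb1*, the gene of interferon beta, had a count in any of the 12 libraries. MHC class I genes, which present peptides to CD8+ T cells, had 17 of 22 positive, 3 at an unadjusted p under 0.05 (3.01% of all genes), and a median of 0.25, or 0.16 without WT NoTx 2. Among them *Tapbp*, which encodes the loading factor tapasin, was at 0.55 (SE 0.16), *H2-T22* at 0.42 (SE 0.17), and *H2-D1*, the most abundant, at 0.26 (SE 0.16).

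On the negative side the lowest p belonged to *Gm43802*, annotated as a processed pseudogene, at 0.573, 1.03 and 1.57 CPM in WT NoTx, 2.82, 2.14 and 3.00 CPM in WT UVTx, 1.86, 0.823 and 1.01 CPM in *Ifnk* TG NoTx and 0.204, 0 and 0.0918 CPM in *Ifnk* TG UVTx. Its WT UVTx libraries were above and its *Ifnk* TG UVTx libraries below all untreated ones. The interaction was -4.87 (SE 0.82) (adjusted p 0.616, edgeR). The *Ifnk* TG UVTx libraries held 7, 0 and 3 counts, and reads of a processed pseudogene can belong to its parent gene, so the value is uncertain.

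*Safb* and *Safb2* encode scaffold attachment factors, nuclear proteins that bind DNA and RNA, and lie head to head on chromosome 17 of GRCm38. *Safb2* spans 56560965 to 56584585 on the minus strand and *Safb* 56584825 to 56606294 on the plus strand, with 240 bases between their starts. *Safb* was at 117, 88.4 and 97.4 CPM in WT NoTx, 184, 202 and 192 CPM in WT UVTx, 131, 155 and 139 CPM in *Ifnk* TG NoTx and 162, 152 and 161 CPM in *Ifnk* TG UVTx. *Safb2* was at 104, 69.7 and 91.9 CPM in WT NoTx, 168, 169 and 170.1 CPM in WT UVTx, 123, 139.9 and 122 CPM in *Ifnk* TG NoTx and 167, 144 and 116 CPM in *Ifnk* TG UVTx. In both genes the order was the same, with WT NoTx lowest and apart from the other groups and WT UVTx highest. Both rose in WT, *Safb* by 0.93 (adjusted p 0.00548) and *Safb2* by 0.93 (adjusted p 0.015, edgeR, log2 scale). Their responses in *Ifnk* TG were 0.16 and 0.15, and their interactions -0.77 (SE 0.14) and -0.77 (SE 0.20), with an adjusted p of 0.848 each.

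*Jun*, a subunit of the immediate early factor AP-1, had the same order of groups. It was at 8.63, 8.44 and 9.55 CPM in WT NoTx, 16.6, 18.7 and 15.05 CPM in WT UVTx, 13.7, 13.3 and 10.7 CPM in *Ifnk* TG NoTx and 13.4, 11.5 and 14.8 CPM in *Ifnk* TG UVTx. It rose in WT by 0.92 on the log2 scale (adjusted p 0.015, edgeR), with a response of 0.07 in *Ifnk* TG and an interaction of -0.85 (SE 0.20). Of the 25 tested immediate early genes, 17 were negative, 3 at an unadjusted p under 0.05 (2.44% of all genes), but the median was -0.10, and from -0.24 without *Ifnk* TG UVTx 12 to 0.012 without *Ifnk* TG UVTx 11. *Nr4a1*, a nuclear receptor induced by antigen receptor signals, was at -0.84 (SE 0.24), and *Btg2*, the most abundant of the list, at -0.31 (SE 0.18). *Nab2*, a corepressor of the EGR factors, was at -0.78 (SE 0.20).

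Of the other genes of lowest p on this side, 5 rose in WT and had a UVB response of -0.03 to 0.21 in *Ifnk* TG. *Gm12940*, a processed transcript, was at -1.54 (SE 0.33), *Gm50387* at -1.03 (SE 0.23), and *Taf1c*, a subunit of the RNA polymerase I initiation factor, at -0.47 (SE 0.11). *Mxd4*, a partner of MAX that opposes MYC, was at -0.63 (SE 0.16), and *Phka2*, a regulatory subunit of phosphorylase kinase, at -0.61 (SE 0.16). *Snap91*, a clathrin adaptor of synapses, had 6 to 46 counts per library and a response of 0.07 in WT and -2.15 in *Ifnk* TG. *Gnaz*, a G protein alpha subunit, held 0, 0 and 1 counts in WT NoTx, which is under the floor of 3 counts, against 31, 7 and 21 in WT UVTx, 7, 5 and 12 in *Ifnk* TG NoTx and 17, 4 and 12 in *Ifnk* TG UVTx. Of the 394 negative genes at an unadjusted p under 0.05, 371 were in none of the lists.

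**Figure D4:**
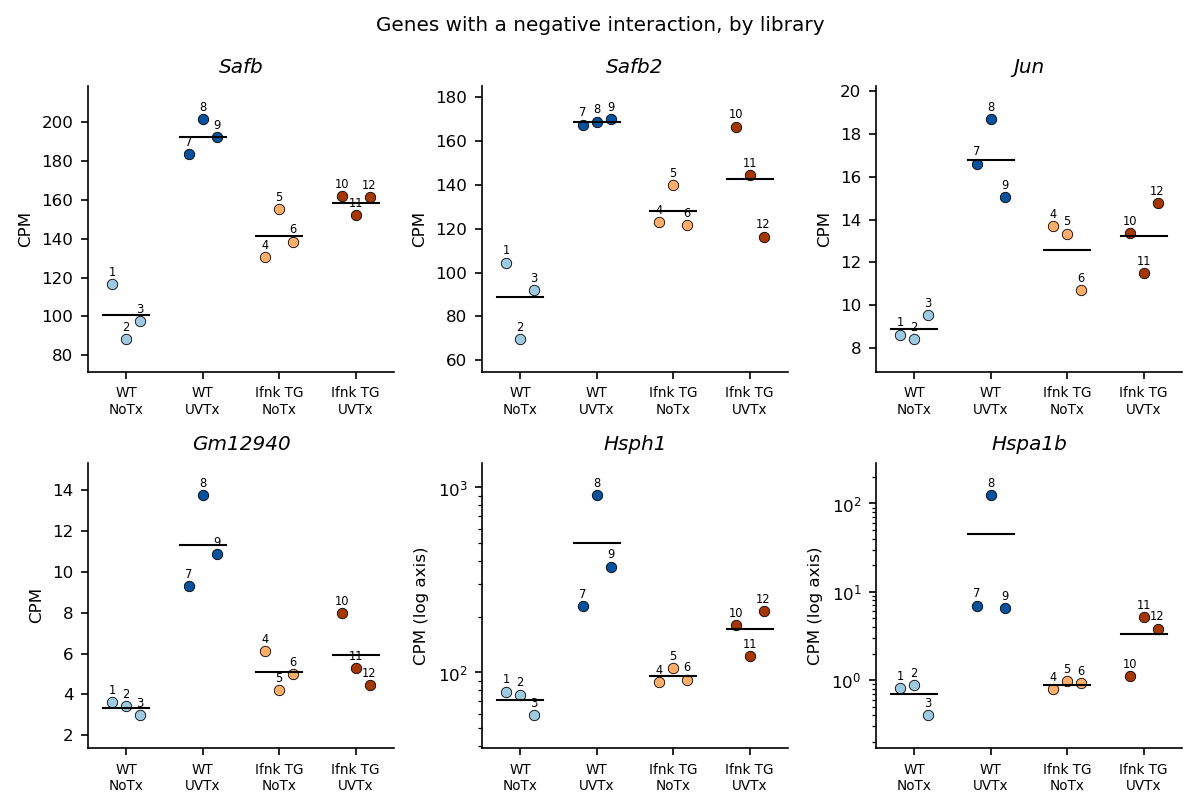
CPM of 6 genes with a negative interaction, by group (log axes for the heat shock genes *Hsph1* and *Hspa1b*); each point is a library with its number and each line is the mean of 3 libraries. *Safb* and *Jun* are lowest in WT NoTx and highest in WT UVTx, and *Hspa1b* reaches 123 CPM in WT UVTx 8.

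Heat shock genes, which encode chaperones that refold proteins after heat and other stress, had 18 of 21 tested members negative, 9 of them at an unadjusted p under 0.05, against 2.44% of all genes. Their median UVB response was 1.07 in WT, where 13 of 21 rose (2.92% of all genes), and 0.31 in *Ifnk* TG. *Hsph1*, a chaperone of the HSP110 family, was at 78.8, 75.7 and 58.6 CPM in WT NoTx, 228, 905 and 373 CPM in WT UVTx, 88.4, 106 and 91.5 CPM in *Ifnk* TG NoTx and 181, 123 and 214 CPM in *Ifnk* TG UVTx. It was above NoTx in all UVTx libraries of both genotypes, most of all in WT UVTx 8, and its interaction was -1.96 (SE 0.61). *Stip1*, a co-chaperone that joins HSP70 to HSP90, was at -1.04 (SE 0.35), and *Hsp90ab1*, the most abundant member, at -0.40 (SE 0.28). *Hspa1b*, an inducible HSP70, was at 6.97, 123 and 6.53 CPM in the WT UVTx libraries and at most 5.12 CPM in the other groups. Its near-identical copy *Hspa1a* makes the split of reads between them uncertain.

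The heat shock values leaned on WT UVTx 8. Without it the median interaction was -0.43, with *Hsph1* at -1.22, *Stip1* at -0.66, *Hsp90ab1* at -0.10 and *Hspa1b* at -1.37, and over all 12 fits that left out 1 library it ran from -0.95 to -0.43. Scores of the list were 0.24, 1.60 and 0.47 in WT UVTx, -0.10, 0.0035 and 0.44 in *Ifnk* TG UVTx, and -0.71 to -0.22 in the 6 NoTx libraries. The UVTx libraries of the genotypes thus overlapped, and all 6 lay above all NoTx libraries. Without both WT UVTx 8 and *Ifnk* TG UVTx 11, chosen after the data were seen, the median was -0.32.

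Mitosis genes, which build the spindle and separate the chromosomes, had 44 of 46 negative interactions, but 0 of them at an unadjusted p under 0.05, and a median of -0.39. The median was -0.12 without *Ifnk* TG NoTx 6, -0.17 without WT UVTx 7, -0.18 without *Ifnk* TG UVTx 11 and -0.61 without *Ifnk* TG NoTx 5. It was -0.08 without both *Ifnk* TG UVTx 11 and 12. Their median UVB response was 1.00 in WT, where 8 of 46 rose (2.92% of all genes), and 0.56 in *Ifnk* TG. *Cdca8*, which encodes borealin, was at 5.01, 4.11 and 3.47 CPM in WT NoTx, 13.6, 10.1 and 7.66 CPM in WT UVTx, 6.24, 3.63 and 6.11 CPM in *Ifnk* TG NoTx and 9.31, 5.99 and 8.84 CPM in *Ifnk* TG UVTx. It rose in WT by 1.32 on the log2 scale (adjusted p 0.0266, edgeR), and its interaction was -0.72 (SE 0.37). *Prc1*, which bundles spindle microtubules, was at -0.58 (SE 0.30), and *Smc4*, a condensin subunit and the most abundant member, at -0.04 (SE 0.15). DNA replication genes had a median of -0.04 (-0.14 without *Ifnk* TG UVTx 12, 0.046 without *Ifnk* TG UVTx 11) and 0 of 38 at an unadjusted p under 0.05. In the promoters the letters TTTGAA were in 29 of 39 mitosis genes (74.4%) and 20.2% of all promoters, and CCAAT in 31 of 39 (79.5%) and 41.1%, both on either strand.

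Germinal centre B cell genes had 14 of 15 negative interactions, 1 at an unadjusted p under 0.05 (2.44% of all genes), with a median of -0.64; their median response was 1.63 in WT and 0.40 in *Ifnk* TG, and none rose in WT by the test. *Nuggc*, a nuclear GTPase of germinal centre B cells, was at 0.422, 1.82 and 0.154 CPM in WT NoTx, 10.4, 2.76 and 4.14 CPM in WT UVTx, 2.19, 1.39 and 6.34 CPM in *Ifnk* TG NoTx and 8.69, 4.803 and 5.14 CPM in *Ifnk* TG UVTx. The WT groups did not overlap and the *Ifnk* TG groups did through library 6, and the interaction was -1.94 (SE 1.14). *Tnfsf9*, the ligand of 4-1BB, was at -1.58 (SE 0.69), and *Klhl6*, the most abundant member, at -0.16 (SE 0.18). The median was -0.06 without *Ifnk* TG NoTx 6, -0.22 without WT UVTx 7, -0.984 without *Ifnk* TG UVTx 10 and -1.26 without WT NoTx 2. *Nuggc* was at -1.05 without *Ifnk* TG NoTx 6 and at -3.39 without WT NoTx 2. The general B cell genes had a median of 0.15 with 0 of 20 at an unadjusted p under 0.05; the median was -0.0023 without *Ifnk* TG NoTx 5 and 0.31 without *Ifnk* TG NoTx 4. In whole nodes fewer cells of a type and less RNA per cell cannot be told apart.

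T cell genes had small positive interactions. Of 19 tested, 18 were positive, 5 at an unadjusted p under 0.05 (3.01% of all genes), with a median of 0.21, made of -0.24 in WT and -0.02 in *Ifnk* TG. *Cd8b1*, a chain of the CD8 coreceptor, was at 274, 262 and 266 CPM in WT NoTx, 194, 216 and 240.0 CPM in WT UVTx, 228, 228 and 236 CPM in *Ifnk* TG NoTx and 217, 307 and 288 CPM in *Ifnk* TG UVTx. The WT groups did not overlap, the *Ifnk* TG groups did, and the interaction was 0.53 (SE 0.16). *Cd2*, an adhesion receptor, fell in WT by 0.35 on the log2 scale (adjusted p 0.0343, edgeR), with an interaction of 0.39 (SE 0.12), and *Lck*, the kinase of the T cell receptor, was at 0.17 (SE 0.13). T cell receptor variable genes had 77 of 104 positive, 7 at an unadjusted p under 0.05 (3.01% of all genes), and a median of 0.31, or 0.18 without *Ifnk* TG UVTx 12. Among them *Trav3-4* was at 1.202 (SE 0.40).

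Effector memory and cytotoxic T cell genes had 20 of 27 positive and a median of 0.27 (0.10 without WT NoTx 1, 0.34 without WT NoTx 3). *Ly6c2*, a surface marker of memory CD8+ T cells that interferon also induces, was at 1.05 (SE 0.32). This gene is also in the monocyte and macrophage list, and in whole nodes the cell type behind its value cannot be told. NK cell genes had 8 of 10 positive and a median of 0.33 (0.093 without *Ifnk* TG UVTx 10, 0.54 without WT NoTx 3), with *Eomes*, a T-box factor of NK and memory T cells, at 0.64 (SE 0.26) and *Prf1*, perforin, at 0.27 (SE 0.20). *Il2rb*, the beta chain of the interleukin 2 and 15 receptors, rose in WT by 0.65 (adjusted p 0.0385, edgeR) and was at -0.21 (SE 0.22). Regulatory T cell genes had 13 of 17 negative and a median of -0.20 (-0.37 without *Ifnk* TG UVTx 12, -0.03 without *Ifnk* TG UVTx 11). Ribosomal protein genes had 84 of 90 positive, 0 at an unadjusted p under 0.05, and a median of 0.29; the median was 0.07 without *Ifnk* TG UVTx 12 and 0.45 without *Ifnk* TG UVTx 10.

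**Figure D5:**
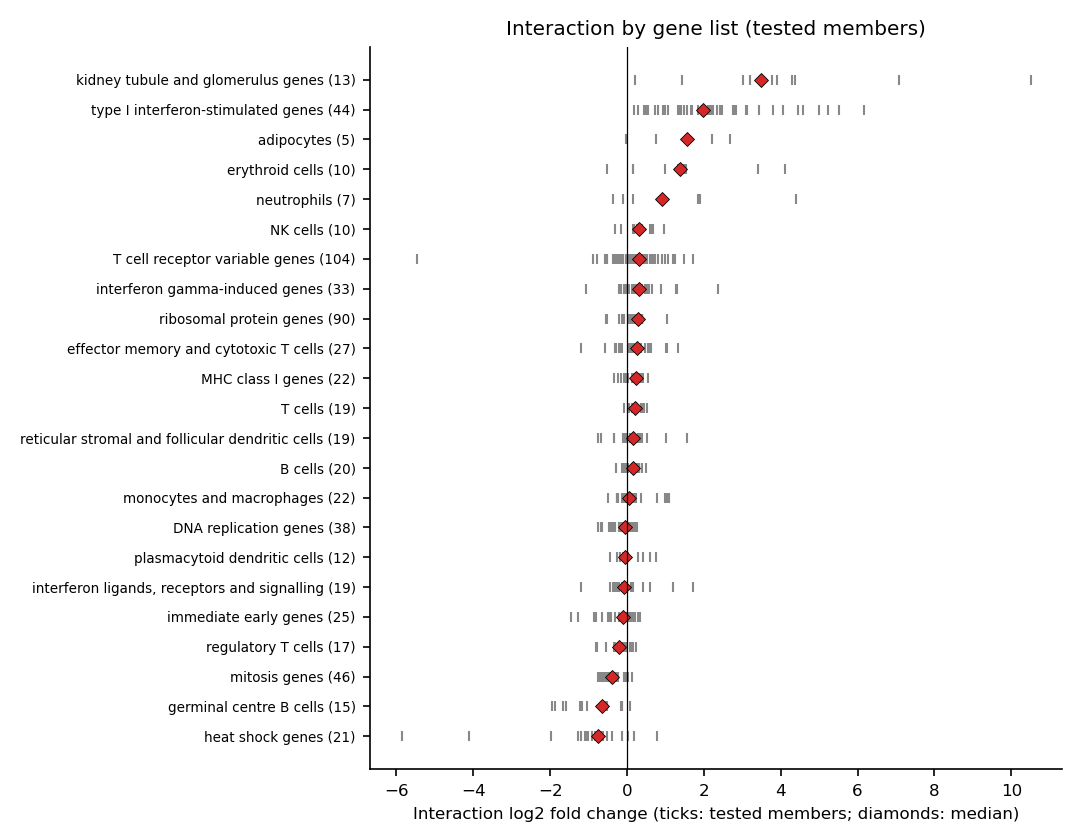
Interaction log2 fold change of the tested members of 23 gene lists (ticks) with the list's median (red diamond) and, in parentheses, the number of tested members. Type I ISGs lie wholly to the right of 0 with a median of 1.98, and heat shock genes have the lowest median at -0.75; the kidney genes, at 3.495, rest on *Ifnk* TG UVTx 11.

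Erythroid, neutrophil and adipocyte genes had positive medians that depended on single libraries. Erythroid genes had a median of 1.39, with UVB responses of -2.86 in WT, where 5 of 10 fell (2.06% of all genes) and 1 rose, and -1.47 in *Ifnk* TG. *Hbb-bs*, a beta globin gene, was at 52.8, 52.5 and 100.5 CPM in WT NoTx, 5.53, 4.54 and 15.6 CPM in WT UVTx, 115, 118 and 97.9 CPM in *Ifnk* TG NoTx and 10.3, 43.6 and 66.4 CPM in *Ifnk* TG UVTx. Its UVTx values were below its NoTx values in both genotypes, by less in libraries 11 and 12. The median was 0.67 without *Ifnk* TG UVTx 12, 2.10 without WT UVTx 9 and -0.44 without both 11 and 12. *Slc4a1*, the anion exchanger of red cells, held 0, 1 and 0 counts in WT UVTx, which is under the floor. Neutrophil genes (7 of 15 tested) had a median of 0.90, of -0.61 without *Ifnk* TG UVTx 12 and of 0.12 without WT NoTx 3. Adipocyte genes (5 of 15 tested) had a median of 1.56, of -0.02 without WT NoTx 3 and of 2.55 without WT UVTx 7; *Fabp4*, a fatty acid carrier, was at 2.68 (SE 0.88).

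Stromal and follicular dendritic cell genes had a median of 0.16, of -0.41 without *Ifnk* TG UVTx 12 and of 0.81 without WT UVTx 7. Plasmacytoid dendritic cell genes, a type known as a source of type I interferon, had a median of -0.05 (-0.15 without *Ifnk* TG NoTx 5, 0.053 without *Ifnk* TG NoTx 4), with 0 of 12 at an unadjusted p under 0.05. Monocyte and macrophage genes had a median of 0.04 (-0.14 without *Ifnk* TG UVTx 12, 0.41 without *Ifnk* TG NoTx 5). Kidney genes had a median of 3.495 with *Ifnk* TG UVTx 11 and of 0.16 without it; *Gpx3*, a secreted peroxidase of the kidney tubule, was at 955 CPM in that library and at 1.16 to 8.12 CPM in the other 11.

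Other genes taken as regulators that the study names in these nodes, or as of their families, follow here, apart from *Ifng* and *Irf7* above. Those of them tested had interactions of -0.64 to 0.19 with adjusted p of 0.85 to 0.987 (edgeR). The study predicted upstream regulators from sets of DEGs and not from a regulator's own RNA. The values here are the interaction of that RNA, so they do not test those predictions. *Myc*, a transcription factor, was at 0.19 (SE 0.16), *Elavl1*, an RNA-binding protein, at -0.08 (SE 0.14), and *Zbtb10*, a zinc finger factor, at 0.04 (SE 0.26). *Ptger2*, a prostaglandin E2 receptor, was at 0.04 (SE 0.30), and *Ppard*, a lipid-sensing nuclear receptor, at -0.13 (SE 0.14). *Ckap2l*, a spindle protein, was at -0.44 (SE 0.42), *Tfeb*, the factor of lysosomal genes, at -0.07 (SE 0.20), and *Tbx3*, a T-box factor, at -0.40 (SE 0.67). *Hgf*, which encodes hepatocyte growth factor, had 2 to 12 counts per library and was at -0.64 (SE 0.92). *Csf2* and *Areg* had at most 5 counts in a library and were not tested.

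A few genes separated completely and in opposite directions. In 22 genes (0.136% of those tested) every UVTx library was above every NoTx library in *Ifnk* TG and below in WT, and in 15 genes (0.0927%) the order was the reverse. *Ifit1bl2*, *Slc16a11*, *Kcnab1* and *Trav3-4* were among the 22, and *Gm43802* was among the 15.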

How the data were processed

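Bulk RNA of inguinal SDLNs was sequenced in 12 libraries. Nodes were passed through a 70 µm strainer and lysed. Per the study and the submitters' processing notes, the authors trimmed reads with cutadapt 4.8, checked them with FastQC 0.11.8 and MultiQC 1.20, aligned them with STAR 2.7.8a to GRCm38 and estimated counts per gene with RSEM 1.3.3. The annotation release and whether strand was used are not given in the sources used here, so overlapping and antisense genes cannot be told apart. The deposited values are expected counts (estimated counts, not normalized), and they were rounded to whole numbers. The file has 55491 rows, 4 of them with no mouse gene identifier, and all rows entered the filter on low counts. The table of skin libraries was not used here.

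Genes passed filterByExpr (minimum count 10, total 15) and were fitted in edgeR 4.0.16 (R 4.3.3) with TMM scaling and robust quasi-likelihood, 1 coefficient per group, over all 12 libraries. P-values were adjusted by Benjamini-Hochberg over all tested genes. CPM are counts scaled to a common library size after TMM. No pairing was fitted, since node libraries share no replicate number. The script was tested on simulated data. The gene lists and members were chosen with earlier results of these data known, and 1 of 48 lists was written after the libraries were compared. Genes named are the 12 of lowest interaction p in each direction, the most abundant and the 2 of lowest p of each list described, the genes the study names as regulators, and *Ifnk*; *Isg15*, *Ifit1*, *Ifit3*, *Rsad2*, *Mx1*, *Oasl2*, *Usp18*, *Bst2*, *Hspa1a*, *Hspa1b*, *Arf5*, *Umod*, *Gpx3*, *Uba7* and *Ifit3b* were added after their values were seen; some genes under this rule are not reported here. Promoters come from RefSeq tables of GRCm38.p6, and gene positions and types from the GENCODE annotation of GRCm38. Alternatives were DESeq2 1.42.0, limma 3.58.1 (voom, with and without quality weights), other scalings and filters, a threshold on fold change, a covariate for *Xist*, gene sets left out and each library left out.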

Additional observations from a re-analysis of the deposited data

Results flagged for a closer look

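In 5 named genes every UVTx library moved one way in *Ifnk* TG and the opposite way in WT, and none passed the test of the interaction (edgeR, adjusted p 0.616 for *Gm43802* and 0.848 for the others); beyond that test the difference was not tested. The interaction log2 fold change was 2.45 for *Ifit1bl2*, 2.51 for *Kcnab1*, 3.19 for *Slc16a11*, 1.202 for *Trav3-4* and -4.87 for *Gm43802*. *Slc16a11*, *Kcnab1* and, in *Ifnk* TG UVTx, *Gm43802* rested on 20 counts per library or fewer. These genes were named for a low interaction p, which includes this difference, so the separation is a description and not separate support. Of all tested genes, 22 (0.136%) separated upward in *Ifnk* TG and downward in WT, and 15 (0.0927%) the reverse. Groups of 3 libraries were not screened for outlying libraries.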

How the results depend on the processing

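The number of genes called in the interaction was 0 under every alternative run except DESeq2, which called 5, and the fits that left out 1 library, which called 0 to 1. The 1 was *Arf5*, without WT NoTx 3; its CPM were 10.1, 12.9 and 91.5 in WT NoTx and its interaction was -0.35 with all libraries and -2.06 without that one. At an unadjusted p under 0.05 those fits held 530 genes (without WT UVTx 8) to 2237 (without *Ifnk* TG UVTx 10), and voom with quality weights, which gave *Ifnk* TG UVTx 12 the lowest weight of 0.240, held 1920. No paired analysis was possible because the node libraries are numbered 1 to 12 and no groups share a number.

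Every one of the 42 to 45 tested ISGs stayed positive in all alternatives except without WT NoTx 2 (43 of 44) and without *Ifnk* TG UVTx 10 (44 of 45). With a covariate for *Xist*, which was at most 1.46 CPM in any library, 20 of 44 had an unadjusted p under 0.05. At so low a level in every library the covariate could not serve as an adjustment for sex. Without both WT UVTx 8 and *Ifnk* TG UVTx 11, 17 of 44 had an unadjusted p under 0.05. Named genes changed sign in 25 pairs of a gene and an alternative. With quality weights *Smc4* was at 0.015. With the *Xist* covariate *Elavl1* was at 0.0039 and *Tfeb* at 0.038. Without WT UVTx 8 and *Ifnk* TG UVTx 11, *Hsp90ab1* was at 0.025, *Il2rb* at 0.0023 and *Elavl1* at 0.10. Without *Ifnk* TG UVTx 11 and 12, *Smc4* was at 0.069, *Hbb-bs* at -0.42, *Gpx3* at -0.40, *Zbtb10* at -0.058 and *Ppard* at 0.0031. Leaving out 1 library gave -0.10 to 0.059 for *Smc4*, -0.11 to 0.22 for *Zbtb10*, -0.20 to 0.012 for *Elavl1*, -0.13 to 0.22 for *Ptger2*, -0.18 to 0.093 for *Tfeb* and -2.06 to 0.13 for *Arf5*. The fits with quality weights and those that left out 2 libraries were chosen after seeing the data. The causes were not tested. Depth limits genes with few counts per library, such as *Slc16a11*, *Kcnab1*, *Gnaz* and *Cxcl10*.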
